A study of Mus musculus with 6 samples.

Results

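The DNA replication machinery was examined through 49 genes for the proteins that mark, open, copy and repackage chromosomal DNA, found by gene symbol in the deposited tables. All 49 symbols were present once each among 54532 listed genes, and all 49 passed the filter on low counts. Poly(A)-selected RNA had been sequenced from splenic CD4+ T cells of wild type C57BL/6J mice in which dextran sulfate sodium (DSS), a polysaccharide that injures the colonic lining, had been given in the drinking water to induce colitis. In 3 libraries the mice had received Akkermansia muciniphila each day, a bacterium of the gut that lives on mucin, and in the other 3 phosphate-buffered saline (PBS). Both groups therefore carried DSS colitis, and no mice without colitis were analysed here. The 6 libraries share the batch label 1, and the labels give neither the age of the mice nor the way in which the T cells were isolated. The series describes the libraries as biological replicates. The cell type entry of every library is CD4+ T cells, but the free-text descriptions of replicates 1, 2 and 3 of each group name CD4+, CD5+ and CD6+ T cells in turn. Cd4 itself, the coreceptor that defines the cells, stood at 884 ± 29.6 CPM (the count scaled to the effective library size) with Akkermansia against 688 ± 31.9 CPM with PBS (SD, n = 3). Library totals ranged from 15032257 to 16677923 counts, at which 3 counts are worth 0.181 to 0.200 CPM.

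Replication begins when the origin recognition complex, Cdc6 and Cdt1 load the MCM2-7 helicase onto DNA in G1 phase. Cdc45, the GINS complex and Mcm10 then turn the loaded rings into active helicases, after which primase, the polymerases, the sliding clamp PCNA and its loader copy both strands. Resting splenic T cells have largely left the cell cycle and keep many of these transcripts low, while antigen-stimulated T cells raise them before they divide, in large part through E2F transcription factors.

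Of the 49 replication genes 15 were lower and 2 were higher with Akkermansia, by the quasi-likelihood test of edgeR with an adjusted p under 0.05 as the threshold and the adjustment made over 15138 genes. The 15 lower genes are 30.6% of the members, beside 8.28% of all genes tested, and the 2 higher genes are 4.08%, beside 7.32%. A log2 fold change (Akkermansia over PBS) below 0 was found in 45 of 49, with a median of -0.25 beside -0.01 over all genes tested. The 3 Akkermansia libraries lay below the 3 PBS libraries in 21 members (42.9%, beside 17.8% of all genes) and above them in 2 (beside 17.1%). The called falls ran from 0.29 to 1.53 on the log2 scale, and the 2 rises were 0.25 and 0.32. Because these are bulk libraries, fewer cells in S phase and less replication RNA per cell cannot be told apart.

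By complex the counts were as follows, with no test of a difference between complexes. Both licensing factors, 4 of 6 MCM2-7 subunits, 3 of 6 clamp and clamp loader genes and 2 of 6 origin recognition genes were lower. Among the 4 polymerase alpha-primase genes and the 4 genes of polymerases delta and epsilon no member was lower. That count was also 0 at an unadjusted p under 0.05 in edgeR and 0 with DESeq2, limma-voom or limma on FPKM. Over all genes tested 8.28% were lower, so 0 among so few genes is near that share. Of the 4 polymerase delta and epsilon genes 1 was higher (beside 7.32% of all genes). The 49 genes summed to 1936 ± 55.3 CPM in the Akkermansia group and to 2299 ± 59.7 CPM in the PBS group (SD, n = 3). The 3 sums with Akkermansia lay between 1876 and 1985 CPM and those with PBS between 2249 and 2365 CPM, so the groups did not overlap.

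**Figure D1:**
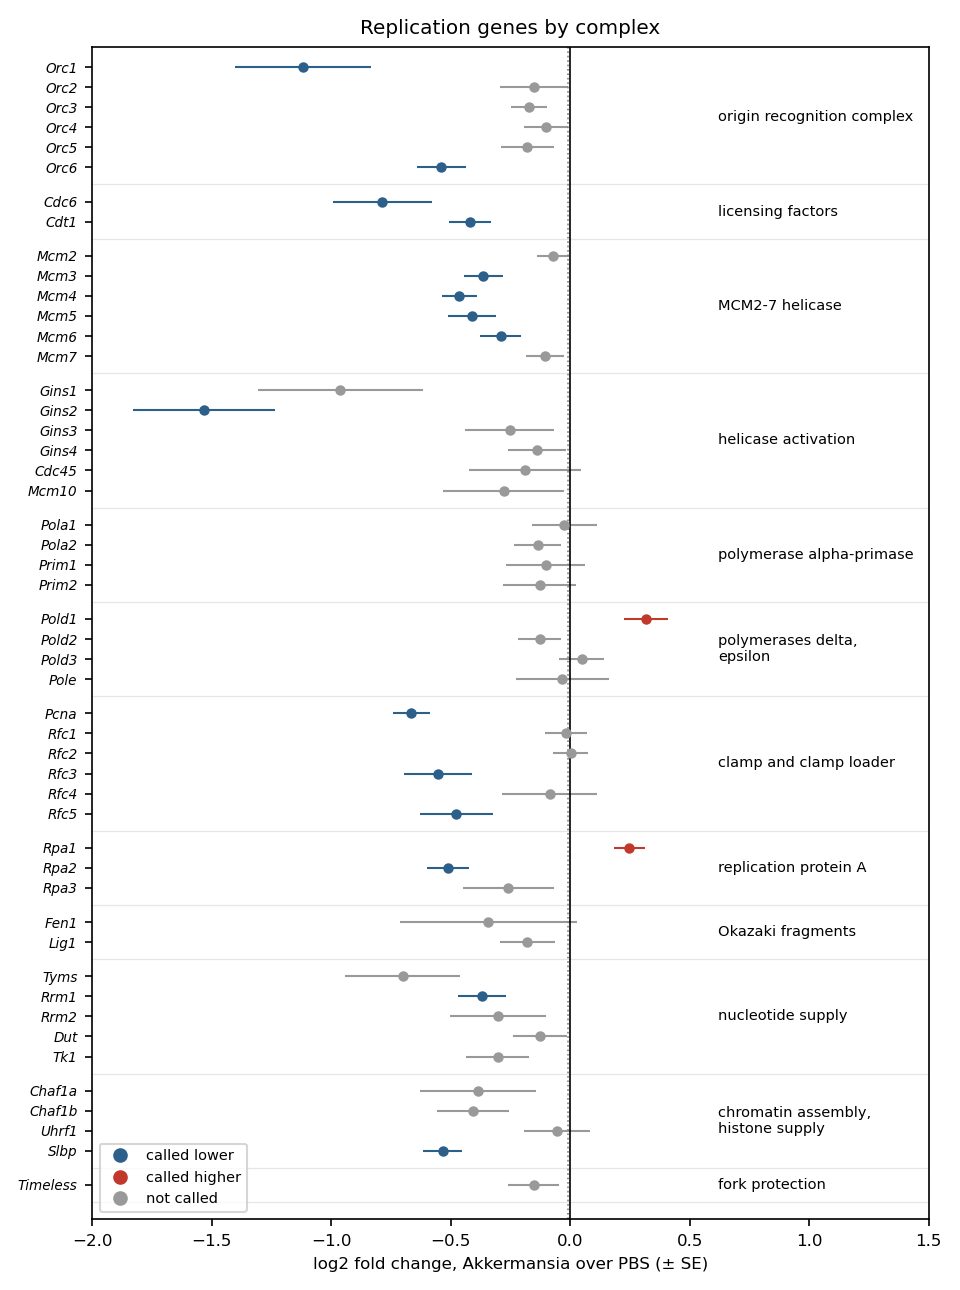
Log2 fold change of each of the 49 replication genes, Akkermansia over PBS, with its standard error, ordered by complex. Blue points are the 15 genes called lower, red points the 2 called higher and grey points the 32 not called, and the dotted line is the median of all genes tested at -0.01.

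Promoters were compared because E2F factors are known to drive many of these genes at the G1 to S transition. An E2F-type element was searched as TTTCCCGC, TTTCGCGC, TTTGCCGC or TTTGGCGC on either strand in the 250 bases before each RefSeq transcript start (GRCm38.p6). Of 49 members 42 had at least 1 such window, and 10 of these 42 (23.8%) held a match, beside 2.16% of 27025 genes. A match was found in 5 of 13 members called lower and in 5 of 27 members not called, a difference that was not tested. Mcm4, Gins1, Gins2, Gins4, Prim2, Pole and Rfc2 had no entry. The 4 stretches of 90 bases below belong to the called members with a match and the smallest p-values, and are read 5′ to 3′ along the gene, with the matches in capitals.
Mcm5, chr8:75109315-75109404, plus strand: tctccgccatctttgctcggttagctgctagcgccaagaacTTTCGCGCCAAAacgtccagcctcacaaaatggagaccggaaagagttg
Orc1, chr4:108579364-108579453, plus strand: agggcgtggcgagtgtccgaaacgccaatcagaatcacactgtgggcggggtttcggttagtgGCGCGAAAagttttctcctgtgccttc
Rfc3, chr5:151651209-151651298, minus strand: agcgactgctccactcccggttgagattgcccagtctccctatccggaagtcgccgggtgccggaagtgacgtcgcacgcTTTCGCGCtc
Cdc6, chr11:98907968-98908057, plus strand: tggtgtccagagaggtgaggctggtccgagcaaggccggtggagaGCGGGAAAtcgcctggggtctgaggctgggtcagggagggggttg
The Mcm5 stretch holds 2 overlapping matches, 1 on each strand, and each of the other 3 holds 1. The Orc1 and Rfc3 stretches end at the base before the transcript start, while those of Mcm5 and Cdc6 end 105 and 94 bases before it. A match describes the letters and does not show that a factor binds there.

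In the origin recognition complex, which marks the sites where replication starts, 2 of 6 subunits were lower. Orc1, the ATPase subunit that is made and degraded in each cycle, stood at 3.23, 1.67 and 2.78 CPM in the 3 Akkermansia libraries and at 4.23, 6.17 and 6.32 CPM in the 3 PBS libraries. Every Akkermansia library was lower than every PBS library, and Orc1 fell by 1.12 ± 0.29 (log2, SE, adjusted p = 0.0194) on 25 to 103 counts per library. Orc6, the smallest subunit, had 19.4, 20.6 and 21.5 CPM with Akkermansia and 27.8, 31.4 and 30.2 CPM with PBS. The groups were again apart, and Orc6 fell by 0.54 ± 0.10 (adjusted p = 0.00417). Orc2, Orc3, Orc4 and Orc5, the remaining subunits, had log2 fold changes of -0.15, -0.17, -0.10 and -0.18 and did not pass. Of these 4, Orc3 alone had groups that did not overlap (adjusted p = 0.143). Without Akkermansia 2 or Akkermansia 3 the Orc1 call was lost (adjusted p up to 0.0848), whereas the Orc6 call was kept in each fit without 1 library (up to 0.0256).

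Both licensing factors were lower. Cdc6, the ATPase that joins the origin complex to load the helicase, had 7.15, 4.07 and 5.37 CPM with Akkermansia and 9.42, 10.1 and 9.14 CPM with PBS. The highest Akkermansia value stayed below the lowest PBS value, and Cdc6 fell by 0.79 ± 0.21 (log2, SE, adjusted p = 0.0226). Cdt1, which brings the MCM2-7 ring to the origin, had 63.0, 56.9 and 67.8 CPM with Akkermansia and 88.0, 75.4 and 87.7 CPM with PBS. It fell by 0.42 ± 0.09 (adjusted p = 0.00736), with no overlap of the groups. The Cdc6 call was lost without Akkermansia 2, Akkermansia 3 or PBS 1 (adjusted p up to 0.102). The Cdt1 call was lost without Akkermansia 2 (adjusted p = 0.0523).

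The MCM2-7 ring, the motor that unwinds the double helix, was lower in 4 of 6 subunits, and all 6 had a log2 fold change below 0. Mcm4 had 108, 97.6 and 113 CPM with Akkermansia and 148, 140.2 and 151 CPM with PBS, a fall of 0.46 ± 0.07 (log2, SE, adjusted p = 0.00147). Mcm5 had 57.9, 51.3 and 59.8 CPM with Akkermansia and 70.2, 86.3 and 68.2 CPM with PBS, a fall of 0.41 ± 0.10 (adjusted p = 0.015). Mcm3 had 56.2, 58.7 and 51.3 CPM against 74.1, 74.1 and 65.7 CPM, a fall of 0.36 ± 0.08 (adjusted p = 0.0116). In these 3 subunits the groups did not overlap. Mcm6 had 99.5, 99.0 and 103 CPM with Akkermansia and 129.6, 133 and 106 CPM with PBS, a fall of 0.29 ± 0.09 (adjusted p = 0.0367) in which PBS 3 lay close to the Akkermansia libraries.

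Mcm2 and Mcm7, the other two ring subunits, did not pass the test. Mcm2 had 85.8, 81.9 and 88.5 CPM with Akkermansia and 89.5, 88.8 and 90.9 CPM with PBS, so that the groups stood next to each other without overlap. Its log2 fold change was -0.07 with a 95% interval from -0.22 to 0.07 (adjusted p = 0.523). Mcm7 had a log2 fold change of -0.11 with an interval from -0.28 to 0.07 (adjusted p = 0.413). The ratio of Mcm4 to Mcm2 counts, from which library scaling drops out, was 1.25, 1.19 and 1.28 with Akkermansia and 1.65, 1.58 and 1.66 with PBS. That ratio was lower in all 3 Akkermansia libraries, for a pair chosen after its values were seen and therefore given with no test. Among the ring subunits the Mcm4 call was kept in each fit without 1 library (adjusted p up to 0.0154). The call was lost for Mcm3 without Akkermansia 3 (0.0685), for Mcm5 without Akkermansia 2 (0.0851), and for Mcm6 in every such fit but that without PBS 3 (up to 0.134). Limma-voom and both limma fits on FPKM also lost the Mcm6 call (up to 0.116).

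Helicase activation genes were lower in 1 of 6 cases. Gins2, a subunit of the GINS complex that completes the active helicase, had 1.14, 1.27 and 1.26 CPM with Akkermansia and 3.62, 4.07 and 2.94 CPM with PBS. These levels rest on 18, 19 and 19 counts with Akkermansia and 60, 62 and 48 counts with PBS. The groups were far apart, and the fall of 1.53 ± 0.30 (log2, SE, adjusted p = 0.00446) was the largest among the 49 members. In the GENCODE M21 annotation 67.3% of the exonic bases of Gins2 lie within exons of Gse1 on the opposite strand, and Gse1 rose by 0.40 ± 0.08 (adjusted p = 0.00527). Whether the counting used strand was not stated, so reads of Gins2 and Gse1 may not have been told apart, and the part this plays in the Gins2 value was not tested.

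Gins1 had the next largest value in that group, at 1.20, 1.27 and 1.19 CPM with Akkermansia and 2.11, 3.15 and 1.90 CPM with PBS. The groups did not overlap, but on 18 to 48 counts per library the log2 fold change of -0.96 ± 0.35 did not pass (adjusted p = 0.0792). Gins3 and Gins4, the remaining GINS subunits, had -0.25 ± 0.19 and -0.14 ± 0.12. Cdc45, the partner of GINS and MCM2-7, had -0.19 ± 0.23, and Mcm10, which helps the activated helicase to start, had -0.28 ± 0.25. None of these 5 passed the test.

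The sliding clamp gave the smallest p-value among the members. Pcna, the ring that tethers polymerases to DNA, had 196, 205 and 233 CPM with Akkermansia and 339, 319 and 347 CPM with PBS. All 3 Akkermansia libraries were far below the lowest PBS library, and Pcna fell by 0.66 ± 0.08 (log2, SE, adjusted p = 2e-04). The call was kept in each fit without 1 library (adjusted p up to 0.00321). A processed copy, Pcna-ps2, was listed separately at 1.09 ± 0.445 CPM in the Akkermansia and 3.68 ± 0.940 CPM in the PBS libraries (SD, n = 3, edgeR adjusted p = 0.00606), and reads could have been divided between the gene and this copy.

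The clamp loader, a pentamer of Rfc1 to Rfc5 that opens the PCNA ring, was split. Rfc3 had 11.0, 11.6 and 12.5 CPM with Akkermansia and 16.2, 20.1 and 15.3 CPM with PBS, a fall of 0.55 ± 0.14 (log2, SE, adjusted p = 0.0203). Rfc5 had 17.3, 17.3 and 14.8 CPM with Akkermansia and 19.0, 28.5 and 21.3 CPM with PBS, a fall of 0.48 ± 0.15 (adjusted p = 0.0492) in which PBS 2 stood above all other libraries. The large subunit Rfc1 and the small subunits Rfc2 and Rfc4 had log2 fold changes of -0.02, 0.00 and -0.09, with 95% intervals of -0.20 to 0.17, -0.16 to 0.16 and -0.52 to 0.35. The Rfc5 call was lost in every fit without 1 library but that without PBS 1 (adjusted p up to 0.182). It was also lost with limma-voom, RLE size factors, library totals and both FPKM fits (up to 0.139). The Rfc3 call was lost without any Akkermansia library or PBS 2 (up to 0.0821).

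**Figure D2:**
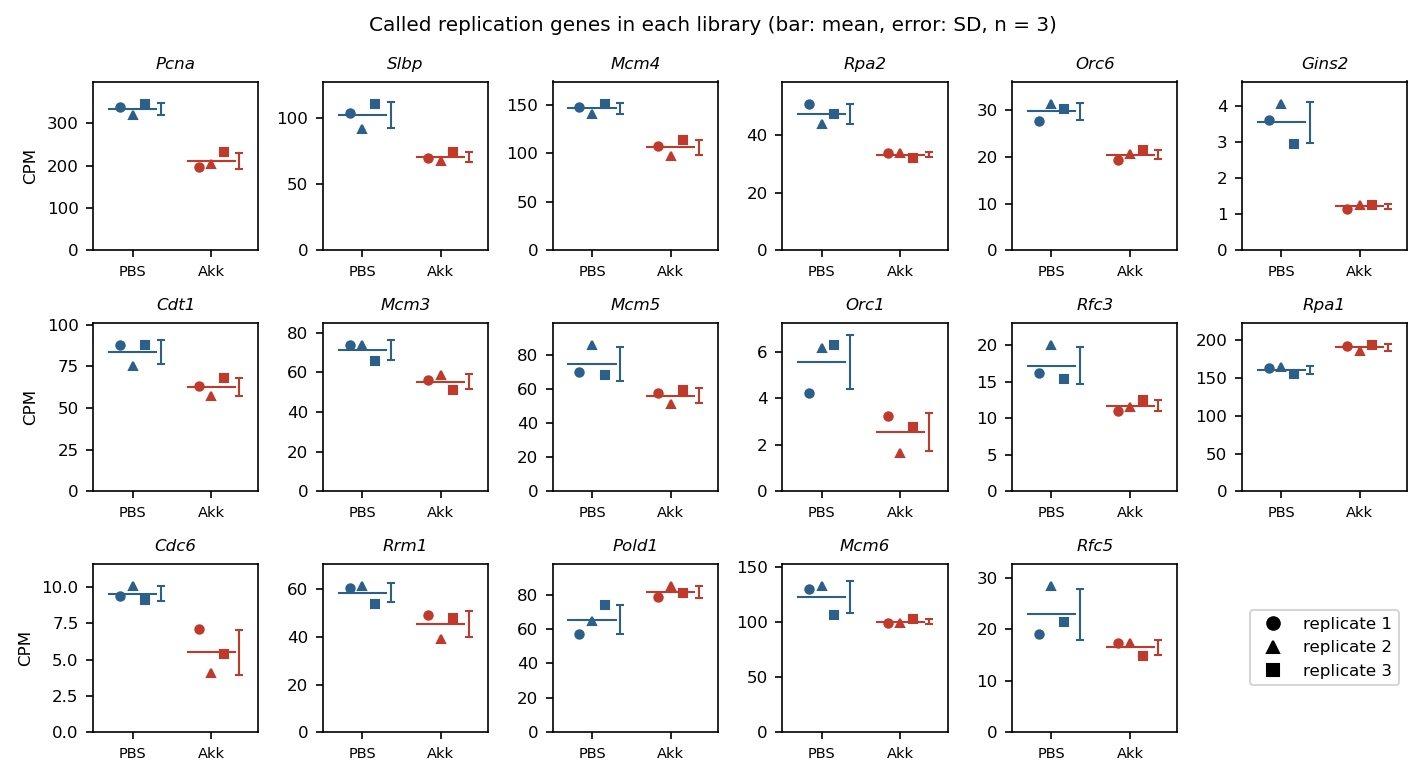
CPM of the 17 called replication genes in each library, ordered by p-value, with every vertical axis starting at 0. Symbols are the 3 replicates, horizontal bars the group means and error bars the SD (n = 3), and in all 17 genes the PBS and Akkermansia (Akk) libraries do not overlap.

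Replication protein A, the trimer that coats single-stranded DNA, had subunits that moved in opposite directions. Rpa1, the large DNA-binding subunit, had 192, 185 and 194 CPM with Akkermansia and 162, 165 and 154 CPM with PBS, a rise of 0.25 ± 0.06 (log2, SE, adjusted p = 0.0216). Rpa2, the subunit phosphorylated under replication stress, had 33.6, 33.9 and 32.1 CPM with Akkermansia and 50.9, 43.8 and 47.3 CPM with PBS, a fall of 0.51 ± 0.09 (adjusted p = 0.0025). Neither gene had overlapping groups. Rpa3, the smallest subunit, had -0.26 ± 0.19 and did not pass (adjusted p = 0.404). The ratio of Rpa2 to Rpa1 counts was 0.174 ± 0.00886 with Akkermansia and 0.295 ± 0.0256 with PBS (SD, n = 3), a separation that follows from the separate values of both genes and has no test of its own. The Rpa2 call was kept in each fit without 1 library (adjusted p up to 0.0199), whereas the Rpa1 call was lost without any Akkermansia library or PBS 1 (up to 0.0955).

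Of the 8 polymerase and primase genes, which synthesise the new strands, 1 was higher and none of the other genes passed. Pold1, the catalytic subunit of polymerase delta, which copies the lagging strand, had 78.5, 85.2 and 80.7 CPM with Akkermansia and 57.3, 64.9 and 73.9 CPM with PBS. The groups did not overlap, and Pold1 rose by 0.32 ± 0.09 (log2, SE, adjusted p = 0.033). The call was lost in every fit without 1 library but that without PBS 3 (adjusted p up to 0.136). Its partners Pold2 and Pold3 had -0.13 ± 0.09 and 0.05 ± 0.09, and Pole, the catalytic subunit of the leading strand polymerase epsilon, had -0.03 ± 0.19. Pola1 and Pola2 of polymerase alpha and the primase genes Prim1 and Prim2, which lay the starting primers, had values between -0.14 and -0.02. The groups overlapped in each of these 7 genes.

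The clamp holds polymerase delta on the DNA, and their transcripts were also compared directly. The ratio of Pcna to Pold1 counts was 2.50, 2.41 and 2.89 with Akkermansia and 5.92, 4.92 and 4.69 with PBS. Every Akkermansia value was lower, which follows from the separate calls of both genes, so no test is given for this pair. Neither maturation gene of lagging strand fragments passed the test (0 of 2 in edgeR, beside 15.6% of all genes called in either direction). The count was also 0 at an unadjusted p under 0.05 in edgeR and 0 with DESeq2, limma-voom or limma on FPKM. Lig1, the ligase that seals them, had 34.0, 28.4 and 33.9 CPM with Akkermansia and 33.4, 42.1 and 33.6 CPM with PBS, with overlapping groups and a log2 fold change of -0.18 ± 0.12. Fen1, the flap nuclease, had 20 to 44 counts per library and -0.34 ± 0.37. In GENCODE M21 78.8% of its exonic bases lie opposite the antisense gene Gm10143, so its level is uncertain.

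Nucleotide supply genes were lower in 1 of 5 cases. Rrm1, the large subunit of ribonucleotide reductase, which makes deoxyribonucleotides, had 49.1, 39.2 and 48.0 CPM with Akkermansia and 60.4, 61.6 and 54.0 CPM with PBS. It fell by 0.37 ± 0.10 (log2, SE, adjusted p = 0.0242) with no overlap, and the call was lost without Akkermansia 2, Akkermansia 3 or PBS 1 (adjusted p up to 0.124). Rrm2, its S phase partner, had 23.5, 12.6 and 16.9 CPM against 21.5, 24.5 and 19.6 CPM, so Akkermansia 1 lay within the PBS range, and its -0.30 ± 0.20 did not pass (adjusted p = 0.354). Tyms, thymidylate synthase, had 7.27, 6.81 and 7.09 CPM with Akkermansia and 9.0, 16.7 and 8.77 CPM with PBS. Here PBS 2 was far above the other two PBS libraries, and the log2 fold change of -0.70 ± 0.24 did not pass (adjusted p = 0.0702), although it did with DESeq2 (0.0359), with no filter on low counts (0.00351) and without PBS 3 (0.0286). Tk1, thymidine kinase, had -0.30 ± 0.13 with groups apart (adjusted p = 0.134), and Dut, which removes dUTP, had -0.13 ± 0.11.

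Genes that repackage the copied DNA were lower in 1 of 4 cases. Slbp, which binds the stem-loop of replication-dependent histone mRNAs, had 69.6, 67.6 and 74.3 CPM with Akkermansia and 104, 91.3 and 111 CPM with PBS. The groups were well apart, and Slbp fell by 0.53 ± 0.08 (log2, SE, adjusted p = 0.00117), a call kept in each fit without 1 library (up to 0.0124). Chaf1b, the middle subunit of chromatin assembly factor 1, had 13.0, 13.0 and 13.1 CPM with Akkermansia and 18.6, 19.7 and 13.6 CPM with PBS. PBS 3 lay beside the Akkermansia libraries, and the log2 fold change of -0.41 ± 0.15 did not pass (adjusted p = 0.0856) except without PBS 3 (0.0139). Chaf1a, the large subunit, had -0.39 ± 0.24, and 52.5% of its exonic bases lie opposite Ubxn6 in GENCODE M21.

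Uhrf1, which guides maintenance methylation to new DNA, showed no separation, with 24.8, 18.9 and 22.4 CPM against 22.5, 26.7 and 19.6 CPM. Its log2 fold change was -0.06 with a 95% interval from -0.36 to 0.24 (adjusted p = 0.832). Timeless, a fork protection factor, had 42.3, 44.6 and 42.7 CPM with Akkermansia and 43.6, 56.7 and 44.0 CPM with PBS. Only PBS 2 was set apart there, and the log2 fold change of -0.15 ± 0.11 did not pass (adjusted p = 0.363).

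Across libraries, PBS 2 carried the highest level in 30 of the 49 members, while it was the highest library in 19.3% of all genes tested. PBS 1 was the highest in 8 and PBS 3 in 7 members, and Akkermansia 2 was the lowest in 21. The mean log2 level of the 49 genes, relative to the mean of the 6 libraries, was -0.10, -0.22 and -0.12 with Akkermansia and 0.11, 0.29 and 0.05 in PBS 1, PBS 2 and PBS 3. Over all genes tested the same measure stayed between -0.03 and 0.02. Without PBS 2, 12 members were lower, beside 9.04% of all genes in that fit, and 1 was higher. In that fit 12 members had a log2 fold change above 0, where 4 had one with all libraries. Leaving out Akkermansia 2 gave 7 lower members (beside 3.97% of all genes in that fit) and Akkermansia 3 gave 8 (beside 4.06%). Akkermansia 1 and PBS 1 each gave 12 (beside 4.85% and 5.12%), and PBS 3 gave 16 (beside 8.02%). The share over all genes thus also varied with the library left out. No member was higher without PBS 1 or without any one Akkermansia library. Over all genes only 519 to 679 of 15494 to 15702 were higher in those fits, so a count of 0 is near that share.

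**Figure D3:**
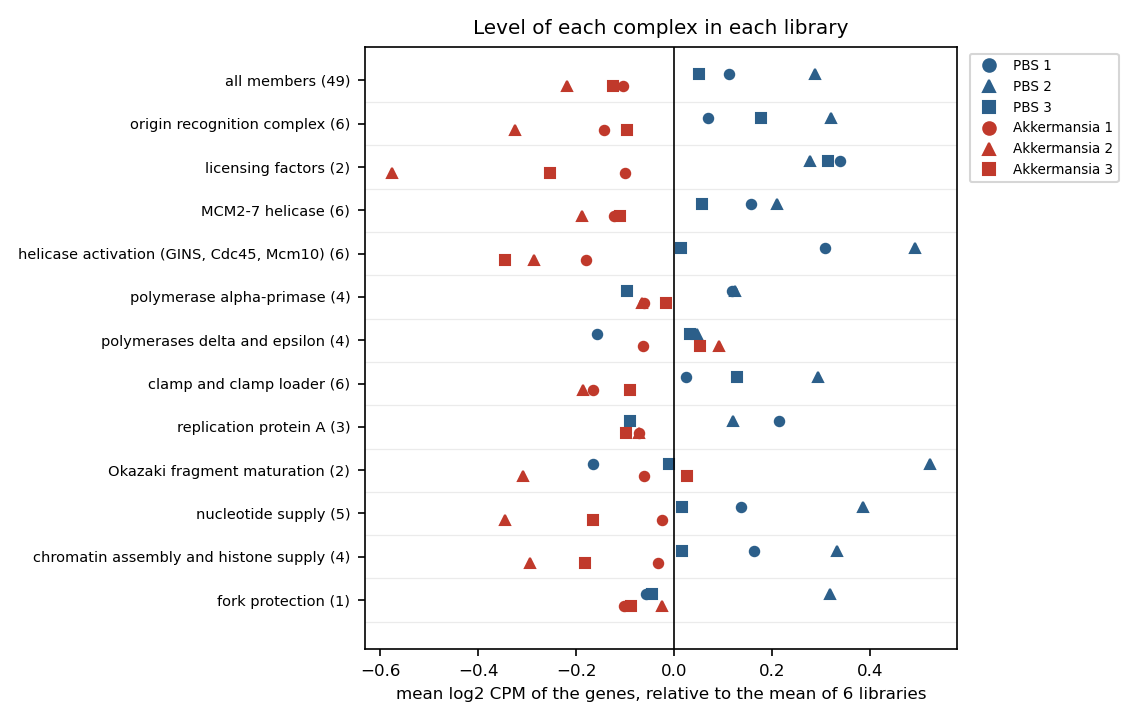
Mean log2 CPM of the replication genes of each complex in each library, relative to the mean of the 6 libraries, with the number of genes in parentheses. Blue symbols are PBS and red symbols Akkermansia libraries, and over all 49 genes the Akkermansia libraries lie at -0.22 to -0.10 and the PBS libraries at 0.05 to 0.29.

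Of the called members 6 kept their call in each fit without 1 library and in each of 9 other fits that changed the test, the scaling, the filter, the unit or the pairing. These were Pcna, Slbp, Mcm4, Rpa2, Orc6 and Gins2. The limma fits on FPKM lost the calls of Orc1, Cdc6, Mcm5, Mcm6, Pold1, Rfc3, Rfc5 and Rrm1, while Cdt1, Mcm3 and Rpa1 kept theirs in all 9 other fits but not in each fit without 1 library. The 6 members kept throughout come from 6 different complexes, with log2 fold changes of -0.66, -0.53, -0.46, -0.51, -0.54 and -1.53. The 32 members without a call had standard errors from 0.07 to 0.37, and their levels, at a median of 21.1 CPM, were lower than the median of 52.1 CPM of the 15 members called lower.

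Length-scaled levels were compared between genes as FPKM (fragments per kilobase of gene, scaled to library size), averaged over the 6 libraries. Pcna stood highest at 113 FPKM, followed by Mcm4 at 35.1 and Rpa1 at 31.4 FPKM. The 6 ring subunits, which assemble in equal numbers, ran from 12.6 FPKM for Mcm2 to 35.1 FPKM for Mcm4. Among the GINS subunits, which also pair in equal numbers, Gins4 had 16.7 FPKM while Gins3, Gins1 and Gins2 had 2.54, 1.19 and 0.580 FPKM. In the origin complex Orc3 had 13.5 and Orc6 10.2 FPKM, and Orc1 only 1.17 FPKM. Cdt1 had 23.2 FPKM beside 1.44 FPKM for Cdc6. Differences in such an order can reflect the gene lengths the authors used, which were not stated. The overlap of Gins2 exons with Gse1, given above, also leaves the Gins2 level uncertain.

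**Figure D4:**
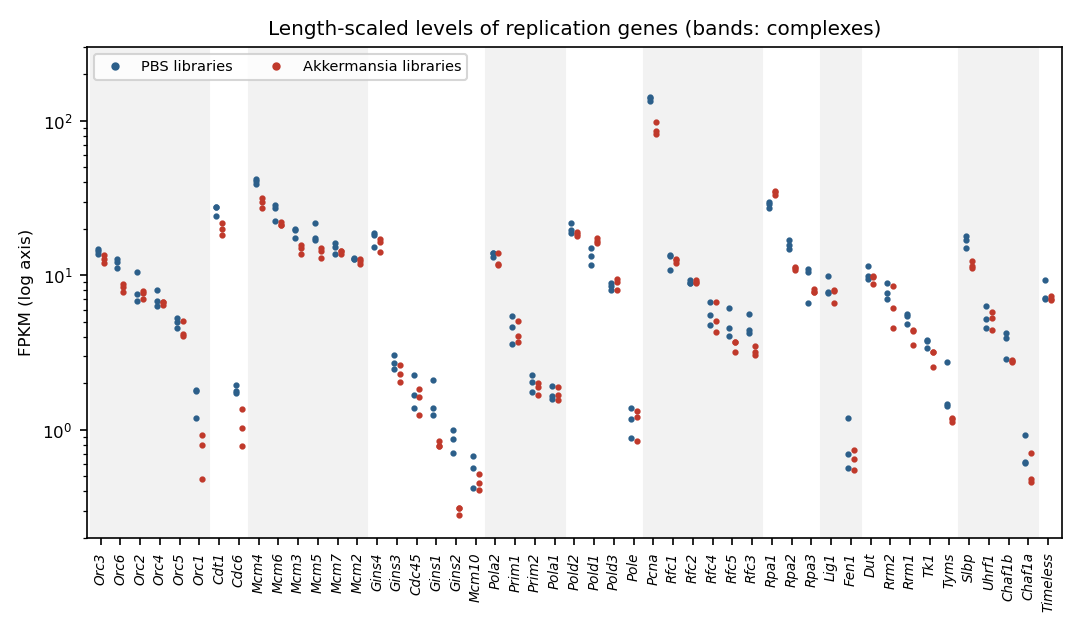
FPKM of the 49 replication genes in each of the 3 PBS (blue) and 3 Akkermansia (red) libraries on a log axis, with shaded and white bands marking the complexes in the order of the text and genes ordered by level within each. Pcna is the highest gene at a mean of 113 FPKM, and Mcm10, Gins2, Chaf1a and Fen1 lie below 1 FPKM on average. Most exonic bases of Gins2, Chaf1a and Fen1 lie opposite another gene, so their levels are uncertain.

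Of 43 further replication genes 5 were lower (11.6%, beside 8.28% of all genes) and 3 higher (6.98%, beside 7.32%), called shares close to those over all genes. Their median log2 fold change was -0.15, with 31 of 43 below 0. The 3 Akkermansia libraries lay below the 3 PBS libraries in 13 (30.2%, beside 17.8% of all genes) and above them in 4 (beside 17.1%). Because the called shares are close to those over all genes, the genes named from this list are given for themselves. Dtl, the substrate receptor of the ubiquitin ligase that destroys Cdt1 on DNA-bound PCNA, had 7.34, 3.94 and 6.03 CPM with Akkermansia and 25.9, 19.2 and 23.7 CPM with PBS. It fell by 1.99 ± 0.20 (log2, SE, adjusted p = 0.000118), a larger estimate than that of any of the 49 members. Nasp, a histone chaperone, had 67.0, 71.4 and 77.7 CPM against 139, 126 and 147 CPM, and fell by 0.93 ± 0.08 (adjusted p = 3.66e-05). Dbf4, the activator of the kinase that fires origins, fell by 0.46 ± 0.08 (adjusted p = 0.00199). Chtf8, part of an alternative clamp loader, rose by 0.53 ± 0.07 (adjusted p = 0.000669).

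The E2F factors and their pocket protein partners had no call among 16 genes (beside 15.6% of all genes) by edgeR. Their median was -0.03. At an unadjusted p under 0.05 edgeR gave 2 lower and 0 higher, and DESeq2, limma-voom and limma on FPKM called 0. E2f1, an activating E2F, had 7.53, 7.61 and 5.43 CPM with Akkermansia and 6.46, 6.24 and 5.89 CPM with PBS (log2 fold change 0.15 ± 0.20, adjusted p = 0.669). Of 10 cyclins, kinases and inhibitors of S phase, 3 were lower (30%, beside 8.28% of all genes) and 1 was higher (10%, beside 7.32%). Cdkn1a, the inhibitor p21 that binds PCNA, fell by 1.35 ± 0.22 (adjusted p = 0.00212) and Cdkn1b, the inhibitor p27, by 0.28 ± 0.08 (adjusted p = 0.0337). Cks2, a small kinase subunit, fell by 0.85 ± 0.18 (adjusted p = 0.00675), while Cdc25b, a phosphatase that activates cyclin-dependent kinases, rose by 0.62 ± 0.12 (adjusted p = 0.0062). Ccne2, the S phase cyclin E2, had -0.45 ± 0.16 with groups apart and did not pass (adjusted p = 0.0715).

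Mitosis markers were lower in 6 of 20 cases (30.0%, beside 8.28% of all genes tested) and higher in 0 (beside 7.32%), with a median of -0.59. The count of higher markers was also 0 at an unadjusted p under 0.05 in edgeR and 0 with DESeq2, limma-voom or limma on FPKM. Cenpa, the centromeric histone variant, fell by 0.72 ± 0.09 (log2, SE, adjusted p = 0.000322) and Ube2c, a ubiquitin-conjugating enzyme of mitotic exit, by 0.85 ± 0.21 (adjusted p = 0.0149). Mki67, the proliferation marker, had 106, 65.5 and 92.9 CPM with Akkermansia and 82.4, 106 and 77.4 CPM with PBS. Its groups overlapped, and its log2 fold change was -0.01 ± 0.21 (adjusted p = 0.988). Fewer mitosis markers were lower when some libraries were left out, with 1 for Akkermansia 3, 2 for Akkermansia 2 or PBS 2 and 4 for PBS 1. The count was 6 for Akkermansia 1 and 7 for PBS 3. Over all genes, 4.06% were lower without Akkermansia 3, 3.97% without Akkermansia 2, 9.04% without PBS 2 and 5.12% without PBS 1. Without Akkermansia 3 or PBS 2 the count of markers was thus near the share over all genes. That share was 4.85% without Akkermansia 1 and 8.02% without PBS 3.

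**Figure D5:**
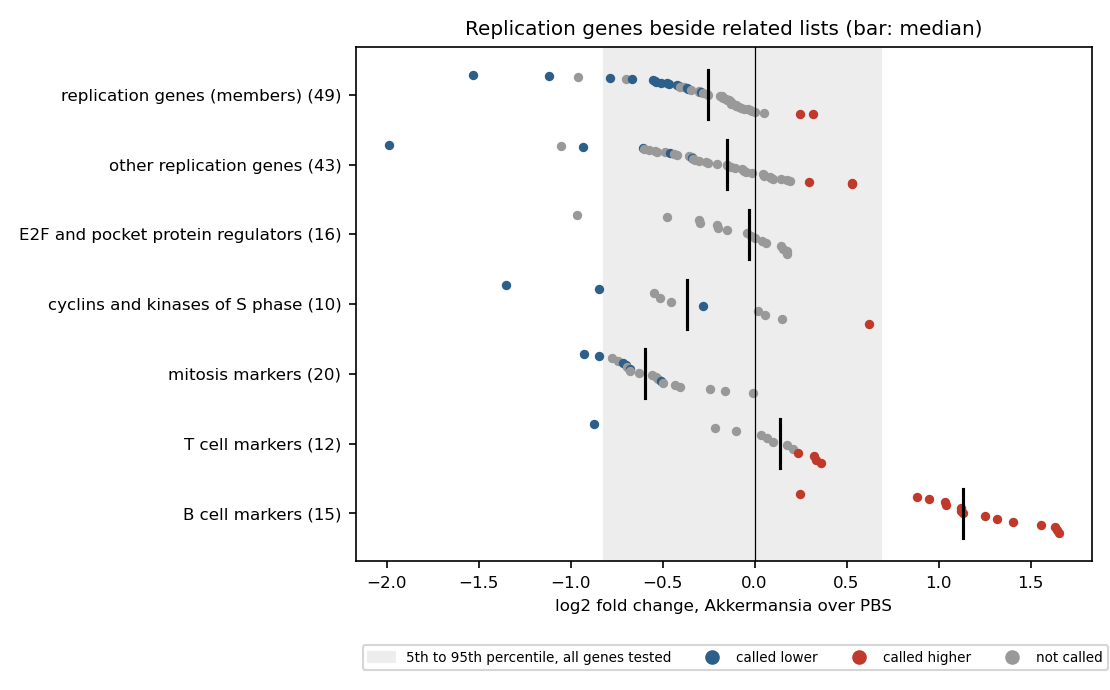
Log2 fold change, Akkermansia over PBS, of each tested gene in the replication list, 4 related cell cycle lists and 2 cell type lists, with the list median as a black bar. The grey band spans the 5th to 95th percentile of all genes tested (-0.82 to 0.69), and the list medians run from -0.59 for mitosis markers to 1.13 for B cell markers.

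Of 12 T cell markers, 4 were higher (Cd4, Cd3e, Cd5 and Lck) and 1 was lower (Cd28), with sums of 5674 to 6029 CPM against 5481 to 5698 CPM. Markers of other cell types are given by their calls and by the summed level of the whole list. Over all genes tested, 8.28% were lower and 7.32% were higher. The called markers named here were chosen after their values were seen. All 15 B cell markers were higher, with sums of 1323 to 1514 CPM with Akkermansia and 912 to 939 CPM with PBS, and both CD8 T cell markers were higher (61.3 to 93.4 against 19.1 to 20.2 CPM). NK cell markers were higher in 5 of 9 tested (Ncr1, Klra8, Klre1, Klra4 and Klrc3), and their list summed to 69.4 to 82.6 against 54.3 to 63.9 CPM. Of these 9, 2 had a log2 fold change below 0, Klrb1c at -0.15 and Fcer1g at -0.13. Dendritic cell markers were higher in 3 of 7 tested (Zbtb46, Siglech and Itgax), with list sums of 37.1 to 41.7 against 16.6 to 24.4 CPM. Of these 7, 1 had a log2 fold change below 0 (-0.36), and DESeq2 called 2 higher and limma-voom 1. Of 6 neutrophil markers tested only Camp was higher by edgeR, whereas DESeq2, limma-voom and limma on FPKM each called 3 higher and 0 lower. Of these 6, 1 had a log2 fold change below 0, Retnlg at -0.92. The neutrophil list summed to 74.4 to 166 against 13.3 to 56.2 CPM. Of 11 monocyte and macrophage markers only Lyz2 was higher, and the list sums overlapped, at 567.8 to 620.2 against 509 to 568.1 CPM. Of these 11, 6 had a log2 fold change below 0, with a median of -0.08 over the list, and DESeq2 called 1 lower. Plasma cell markers were lower in 2 of 6 (Xbp1 and Prdm1) and higher in 0 by edgeR. The median log2 fold change of these 6 was 0.57. DESeq2 called 2 lower and 2 higher, limma-voom 1 lower and 2 higher, and limma on FPKM 1 lower and 1 higher. The plasma cell list summed to 581 to 743 CPM against 223 to 357 CPM. In it Igha was the highest gene at a mean of 461 against 112 CPM (edgeR adjusted p = 0.0568). Of 12 erythroid markers only Tfrc was lower by edgeR, whereas DESeq2 and limma-voom each called 3 lower and limma on FPKM 1. The erythroid list, in which edgeR called no haemoglobin gene, summed to 330 to 594 against 625 to 1215 CPM. No marker was at 0 in all 6 libraries, and the part of these cells in the values of the replication genes was not tested.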

How the data were processed

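The authors deposited raw counts per gene and FPKM values rounded to 2 decimals for 3 Akkermansia and 3 PBS libraries, per the file headers. Per the submitters' processing notes, GRCm39 was the build. Not given in the sources used here: aligner, counting program, annotation, strand setting and gene lengths. FPKM, checked over 5248 genes whose lowest library had 500 counts or more, followed from counts and a fixed length within 0.514%.

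Counts were tested in edgeR 4.0.16 (R 4.3.3) with filterByExpr (minimum count 10, minimum total 15; 15138 genes kept), TMM scaling and a two-sided quasi-likelihood F test with robust dispersion, all 6 libraries in 1 fit without covariates, and p-values were adjusted over these genes by Benjamini-Hochberg. SE is the log2 fold change divided by the root of F, and 95% intervals use the t distribution. CPM uses TMM-scaled library sizes. The procedure was tested on simulated data. Within-group library pairs had a chi-square per gene of 4.45 to 19.8, so none was counted as a repeat. If the replicates were not separate animals, p-values measure only the spread between these samples.

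The members and lists were chosen with earlier results of these data known. One marker list is not reported here. Values per library are given for called members, for Mcm2, Rrm2, Tyms, Lig1, Uhrf1 and Timeless and, after their values were seen, for Gins1 and Chaf1b. Up to 4 called genes with the smallest p are named per pathway list, besides Mki67, E2f1 and Ccne2. Promoters came from RefSeq (GRCm38.p6, an older build than the authors'), and exon overlaps from GENCODE M21 on the same older build. Alternatives were DESeq2 1.42.0, limma-voom and limma-trend (limma 3.58.1) on log2(FPKM + 1) and log2(FPKM + 0.1), RLE size factors, library totals, no filter on low counts, a filter of 1 CPM in 3 libraries, a block for the replicate number, and leaving out every library in turn. Figures were drawn with matplotlib 3.10.9.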

Additional observations from a re-analysis of the deposited data

How the results depend on the processing

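The count of lower members was 13 to 16 with DESeq2, limma-voom, RLE size factors, library totals, no filter on low counts, a filter of 1 CPM in 3 libraries and the replicate block, and 2 members were higher in each. Over all genes 5.28% to 8.94% were lower in those fits. With limma-trend on log2(FPKM + 1) or log2(FPKM + 0.1), 8 members were lower (beside 5.62% and 5.55% of all genes) and 1 was higher, all among those called by edgeR. The median log2 fold change of the members on log2(FPKM + 1) was -0.15, on a scale that understates changes of low genes. Without 1 library at a time the members counted 7 to 16 lower and 0 to 2 higher, their median log2 fold change lay between -0.34 and -0.17, and the calls over all genes numbered 623 to 1413 lower and 519 to 1287 higher. No called member changed sign in any of these fits. Akkermansia and PBS libraries share replicate numbers. The free-text descriptions given above name the same T cells for a number in both groups, but nothing says that a number marks a shared animal or day. Deviations from the group means correlated at 0.08, 0.07 and 0.03 between libraries of the same number, and each Akkermansia library correlated best with its own number. With the replicate block 15 members were lower and 2 higher, and 1333 genes were lower and 1205 higher over all genes. Depth limits the low members most: Gins1, Gins2 and Fen1 rest on 18 to 62 counts per library.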

Other observations

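Further promoter elements were searched in the same 250-base windows of RefSeq. The CCAAT box, searched as CCAAT on either strand, was found in 26 of 42 members with a window (61.9%), beside 37.5% of 27025 genes. It was present in 10 of 13 members called lower and in 15 of 27 not called. The cell cycle homology region, searched as TTTGAA or TTCGAA on either strand, was found in 7 of 42 members (16.7%), beside 19.6% of genes, in 1 of 13 called lower and in 6 of 27 not called. These counts are descriptions of the letters, and the differences between called and uncalled members were not tested.

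The spread between replicates differed between the groups for members and other genes alike. The median coefficient of variation of CPM over the 49 members was 11.4% among the PBS libraries and 7.90% among the Akkermansia libraries, beside 12.4% and 9.20% over all genes tested.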
